A study of Arabidopsis thaliana with 6 samples.

Results

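The genes described here are 9 of the 629 listed as targets of ATH1, and they lie at 5 of the 309 places in the genome with a peak in every ATH1-GFP replicate and no wild-type peak at a false-discovery rate below 0.001. They are *XRI1* (AT5G48720) and AT5G48730, AT1G30660, *RALFL20* (AT2G34825) and *WRKY35* (AT2G34830), *IQD5* (AT3G22190) and *POP2* (AT3G22200), and AT1G05700 and AT1G05710. The members were chosen by the fold enrichment of the peaks in their windows, the highest or nearly the highest among regions without a wild-type peak, so fold enrichment, pileup and q value are given for them as a description and without a test.

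ATH1 is a homeodomain protein of the BELL class, which forms dimers with KNOX homeodomain proteins and binds DNA. It is expressed in the shoot apex, where it is known for restraining growth of the stem below the meristem and for a role in organ boundaries. In ChIP-seq, DNA that is crosslinked to a protein is pulled down with an antibody and sequenced, so the tags (mapped reads) pile up around the bound sequence, and the summit is the place with the highest pile.

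The 6 libraries were 3 replicates of *ath1-3* plants carrying *pATH1:ATH1-GFP*, a fusion driven by the *ATH1* promoter, and 3 replicates of wild-type plants without GFP. Both were precipitated with beads that carry an antibody against GFP, from seedling shoots freed of leaves and roots, so the wild type gave the background of the precipitation. The fusion plants came from a transformed line that the methods describe as carrying a single copy of the transgene. The labels give Landsberg *erecta* as the wild type and 2 weeks of growth with 16 h of light, whereas the deposited design text gives Columbia and the methods give Col-0 and older plants in short days. The peak lists do not tell which is right, and if the labels are, accession cannot be told apart from the fusion.

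With duplicates removed, each ATH1-GFP library kept from 10194418 to 15584829 tags and each wild-type library from 3450182 to 13518524. Peaks were called in each library separately, and fold enrichment is the ratio of the pileup at the summit (the number of tags, extended to 300 nt, over that base) to the background of the same library. A shared region is a stretch covered by a peak of all 3 ATH1-GFP libraries at a false-discovery rate below 0.001, and a free region is one that overlaps no wild-type peak at that threshold. Of 721 shared regions, 309 were free (42.9%), and all 5 sites were among them, which is part of how they were chosen. The number of free regions was 531 without ATH1-GFP replicate 3, and 306 when wild-type peaks of any deposited threshold were set apart. Of the 629 listed genes, 436 (69.3%) had a free region in the window, as all 9 did. In bulk tissue, binding in more cells and more binding per cell cannot be told apart.

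The site with the highest fold enrichment lay in the windows of *XRI1* and AT5G48730. *XRI1* encodes a transcript induced by X-rays and is known to be needed in meiosis, and AT5G48730 encodes a pentatricopeptide repeat protein, a class that mostly binds RNA in chloroplasts and mitochondria. In the ATH1-GFP libraries, fold enrichment reached 7.37 in replicate 1, 7.32 in replicate 2 and 5.27 in replicate 3, with a mean of 6.65 ± 1.20 (SD, n = 3). Replicates 1 and 2 were close to each other and replicate 3 was lower. The pileup at the summit was 263, 255 and 278 tags, so by this measure replicate 3 was the highest.

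The peaks at *XRI1* and AT5G48730 were also the shortest of the 5 sites on average, with lengths of 505, 510 and 503 nt. Their summits were at 19762222, 19762237 and 19762208 on chromosome 5 of the TAIR10 genome, a range of 29 nt. The stretch covered by all 3 peaks ran from 19761980 to 19762451, and all of its 472 nt lay inside both windows. The window of *XRI1* runs from 19755881 to 19763152 and that of AT5G48730 from 19761721 to 19765195. The windows overlapped by 1432 nt, and the summits lay from 487 to 516 nt after the start of AT5G48730's window and from 915 to 944 nt before the end of *XRI1*'s. Of the peaks of replicates 1, 2 and 3, 64.8%, 58.1% and 53.4% overlapped no wild-type peak, as did all 15 main peaks of the 5 sites. No ATH1-GFP peak without a wild-type peak had a higher fold enrichment in any of the 3 libraries. The 5, 6 and 7 peaks that were higher in replicates 1, 2 and 3 all overlapped wild-type peaks.

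AT1G30660 encodes a protein with a Toprim domain, a fold found in primases and topoisomerases. It was the only one of the 5 sites that lay in a single listed window. Replicates 1, 2 and 3 gave fold enrichments of 7.10, 7.12 and 4.61, which average 6.28 ± 1.44 (SD, n = 3). The pileup was 263, 248 and 243 tags, and this was the only one of the 5 sites where replicate 3 had the lowest pileup.

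The summits at AT1G30660 were at 10874952, 10874943 and 10874942 on chromosome 1, a range of 10 nt and the narrowest of the 5 sites. The shared stretch ran from 10874705 to 10875186 (482 nt). The summits lay from 1089 to 1099 nt after the start of the window, which runs from 10873853 to 10879173.

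AT1G30660 was also the only one of the 5 sites with an additional peak in its window. It had a fold enrichment of 2.72 in replicate 1 and 2.64 in replicate 2, with pileups of 99 and 93 tags. These values are 38.2% and 37.1% of the fold enrichment of the main peak. The summits of the additional peak lay 764 and 789 nt from the main one, toward the end of the window, and uncovered stretches of 282 and 284 nt separated the 2 peaks. Replicate 3 had no such peak, and the lowest pileup in its list was 82 tags, so the additional peak belongs to no shared region.

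*RALFL20* encodes a small secreted peptide related to RALF, which is known to change extracellular pH and cell growth, and *WRKY35* encodes a transcription factor of the WRKY family. At their common site, the fold enrichment lay between 4.44 in replicate 3 and 7.34 in replicate 1, with 6.40 in replicate 2. The mean was 6.06 ± 1.48 (SD, n = 3), the largest SD of the 5 sites. The pileup was 283, 223 and 234 tags. Replicate 1 was the highest by both measures, and its pileup of 283 tags was the highest of the 15 main peaks.

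The summits at *RALFL20* and *WRKY35* were at 14692543, 14692567 and 14692537 on chromosome 2 (range 30 nt). The peaks were 829, 697 and 643 nt long and reached further before the summit than after it, by 487 against 341 nt in replicate 1, 440 against 256 nt in replicate 2 and 363 against 279 nt in replicate 3. The shared stretch ran from 14692174 to 14692816 (643 nt). It lay wholly inside the window of *RALFL20*, from 14690879 to 14693129, and 561 nt of it lay inside that of *WRKY35*, from 14692256 to 14699378. The summits were only 281 to 311 nt from the start of *WRKY35*'s window, which is 7123 nt long.

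AT1G05700 encodes a transmembrane protein kinase with leucine-rich repeats, and AT1G05710 a DNA-binding protein of the basic helix-loop-helix class. Fold enrichment was lower there than at the other 4 sites in each library, at 5.60, 5.76 and 4.29 in replicates 1, 2 and 3 (mean 5.22 ± 0.808, SD, n = 3). The pileup was 201, 210 and 226 tags, the lowest of the 5 sites in each library.

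This site was also the broadest, with peaks of 980, 892 and 882 nt. The summits were at 1713977, 1714017 and 1714050 on chromosome 1, a range of 73 nt against at most 30 nt at the others. The shared stretch ran from 1713631 to 1714414 (784 nt) and lay inside both windows, which run from 1709347 to 1714745 for AT1G05700 and from 1713245 to 1717447 for AT1G05710. The windows overlapped by 1501 nt, and the mean summit lay 51.3% along that overlap, near its middle.

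*IQD5* encodes a calmodulin-binding protein that is known to associate with microtubules, and *POP2* encodes the transaminase that breaks down γ-aminobutyric acid (GABA). Fold enrichments at their common site were 7.23, 6.20 and 4.61 for replicates 1, 2 and 3, and their mean was 6.01 ± 1.32 (SD, n = 3). The pileup was 258, 216 and 243 tags. In replicate 3 these values, 243 tags and 4.61, were the same as at AT1G30660.

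The summits at *IQD5* and *POP2* were at 7834012, 7834031 and 7834012 on chromosome 3 (range 19 nt), and the peaks were 562, 588 and 522 nt long. The shared stretch ran from 7833757 to 7834268 (512 nt). It lay wholly inside the window of *IQD5*, from 7831371 to 7835144. The window of *POP2* starts at 7834049 and ends at 7838784, so the summits of all 3 replicates lay outside it, by 18 to 37 nt, and 220 of the 512 nt lay inside. *POP2* was the only one of the 9 genes for which this was so. Among the 436 listed genes with a free region in the window, the strongest one had all its summits outside the window in 17 (3.9%).

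**Figure D1:**
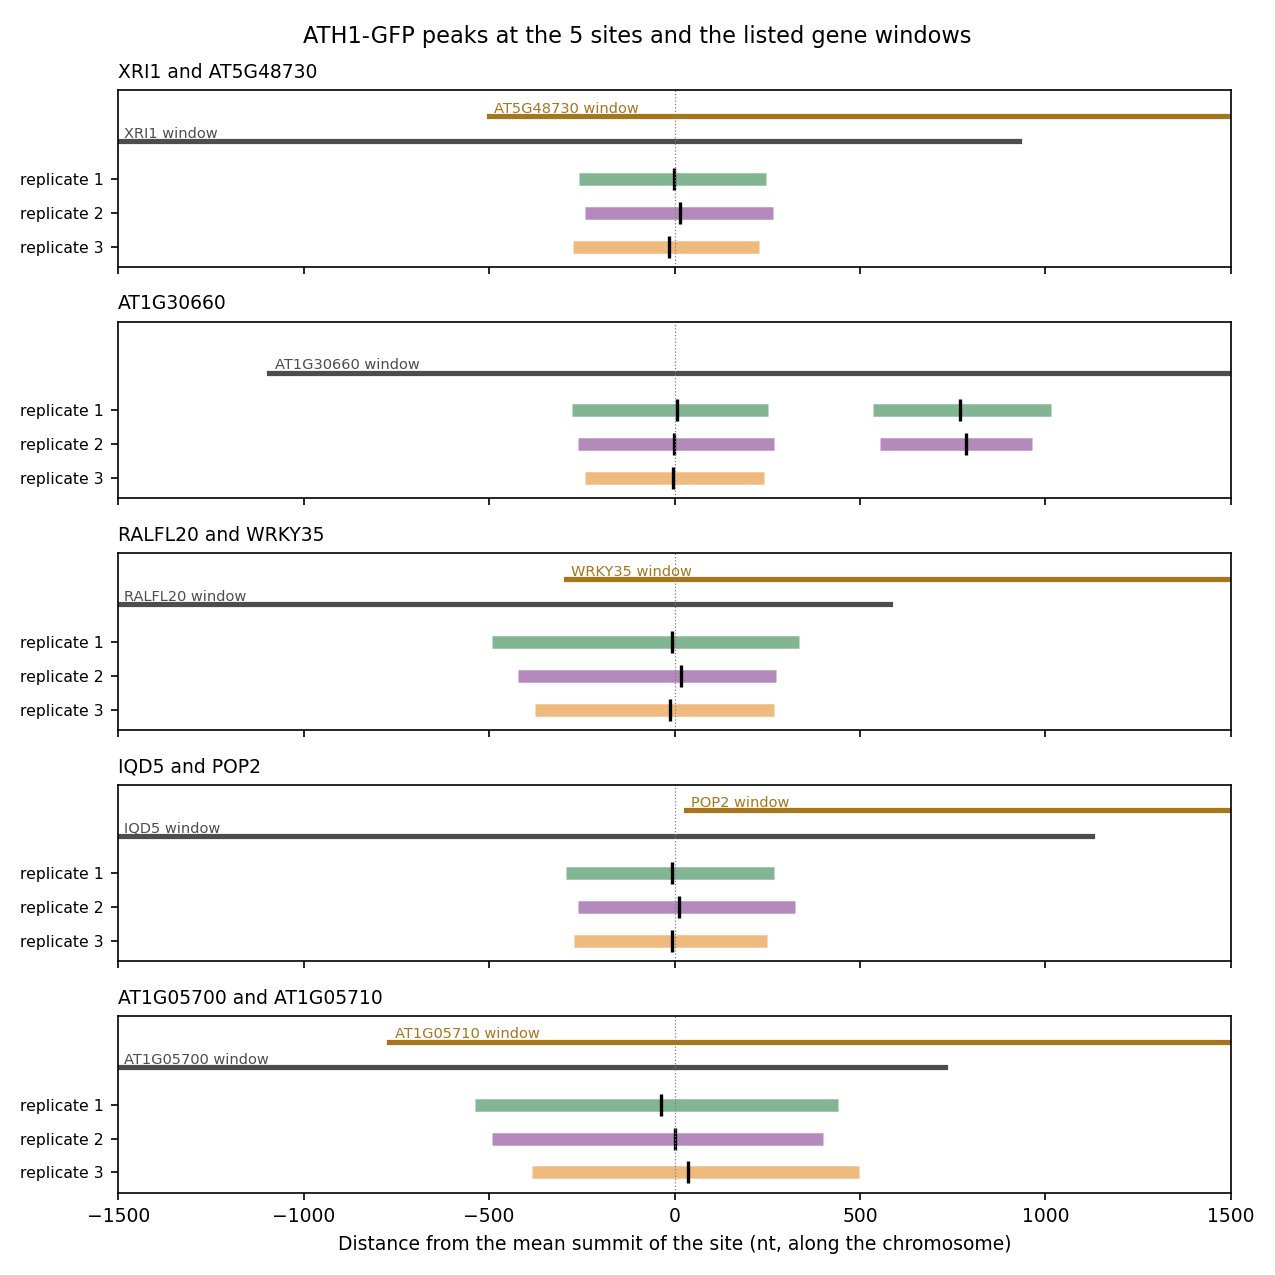
Extent of the ATH1-GFP peaks at the 5 sites in replicates 1, 2 and 3 (colored bars) with their summits (black ticks), along the chromosome in nt from the mean summit of each site. The lines above them are the listed gene windows, drawn up to 1500 nt on either side. The summits of a site lie within 10 to 73 nt of each other, the additional peak at AT1G30660 is missing in replicate 3, and the window of *POP2* starts after the summits.

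With 4 of the 5 sites in 2 windows each, a peak does not tell the genes of a pair apart. This was common among the free regions, of which 150 (48.5%) lay in 2 windows, 133 in 1, 5 in 3 or more and 21 in none. In the order of genes of the RefSeq annotation, *RALFL20* and *WRKY35* are direct neighbors. A noncoding gene is annotated between *XRI1* and AT5G48730 (AT5G07255) and between AT1G05700 and AT1G05710 (AT1G04407), and a protein-coding gene that is not listed, AT3G22183, lies between *IQD5* and *POP2*. The distance of the summits to transcript starts and the DNA sequence under the peaks were not analysed here.

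The order of the sites held only in part within each library. The site of *XRI1* and AT5G48730 was above each of the other 4 sites in 3 of 3 libraries, by 0.376 ± 0.249 (difference in fold enrichment, mean ± SD, n = 3) over AT1G30660 and by 1.44 ± 0.407 over AT1G05700 and AT1G05710. AT1G30660 was above *RALFL20* and *WRKY35* in 2 of 3 libraries, by 0.214 ± 0.480, and the latter were above *IQD5* and *POP2* in 2 of 3, by 0.0486 ± 0.194. For these neighbors in the order, the difference was smaller than its SD. The site of *IQD5* and *POP2* was above that of AT1G05700 and AT1G05710 in 3 of 3 libraries, by 0.797 ± 0.724. By pileup, *XRI1* and AT5G48730 exceeded AT1G30660 by 14.0 ± 18.5 tags, so this order was not beyond the spread. In replicate 1 the pileup was 263 tags at both of these sites and 283 at *RALFL20* and *WRKY35*. The lead of *XRI1* and AT5G48730 in that library, 0.0239 in fold enrichment over *RALFL20* and *WRKY35*, thus rested on the background, which was 34.8 tags against 36.2 at AT1G30660 and 37.7 at *RALFL20* and *WRKY35*.

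**Figure D2:**
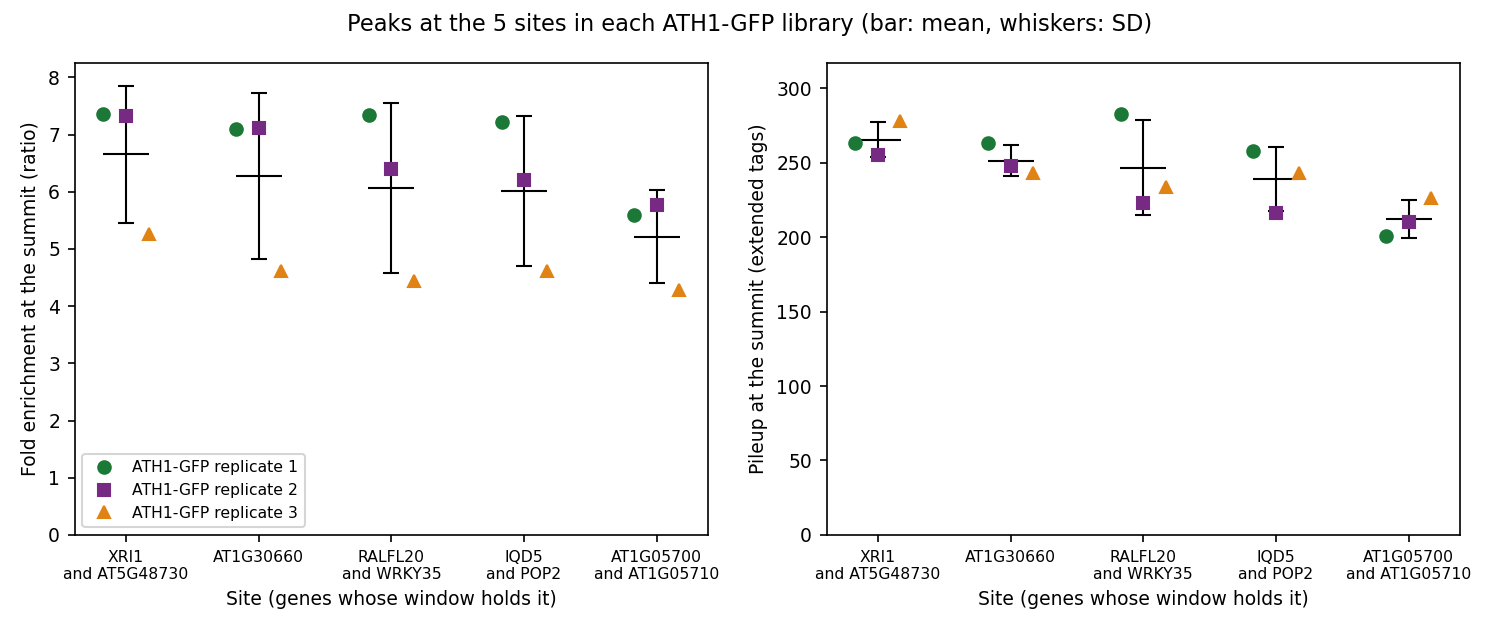
Fold enrichment (left, a ratio) and pileup (right, extended tags) at the summit of the 5 sites in the 3 ATH1-GFP libraries, with 1 symbol per replicate. Bars are means and whiskers are SD. Replicate 3 has the lowest fold enrichment at all 5 sites, from 4.29 to 5.27, whereas its pileup, not scaled for depth, is the lowest only at AT1G30660.

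Replicate 3 had the lowest fold enrichment at 5 of 5 sites, and at 277 of the 304 other free regions (91.1%), so this was not particular to the 9 genes. Its pileup was the lowest at 1 of 5 sites and at 18 of the 304 (5.92%). Replicate 3 was the deepest of the ATH1-GFP libraries, and its background expected from depth was 51.9 tags, against 34.8 and 34.0 in replicates 1 and 2. In 11 of the 15 main peaks, the fold enrichment was the pileup plus 1 divided by that background plus 1, to within 0.001. In the other 4 (AT1G30660 and *RALFL20* and *WRKY35* in replicate 1, AT1G05700 and AT1G05710 in replicates 1 and 2) the background was raised by the surroundings of the peak. Per 1000000 filtered tags, the pileup at AT1G30660 was 25.2, 24.3 and 15.6 in replicates 1, 2 and 3, and at AT1G05700 and AT1G05710 it was 19.2, 20.6 and 14.5. With depth taken into account in this way, replicate 3 was again the lowest at both.

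The ratio of fold enrichment between replicates 1 and 3 ran from 1.31 at AT1G05700 and AT1G05710 to 1.65 at *RALFL20* and *WRKY35*, with a median of 1.54 over the 5 sites and 1.29 over the 304 other free regions. The corresponding ratio of pileups had a median of 1.06 at the sites and 0.906 over the others. The SD of the fold enrichment was 15.5% to 24.4% of the mean at the 5 sites (median 21.9%), and the median of the others was 14.7%. Single other free regions reached a fold enrichment ratio of 2.02 and an SD of 33.5% of the mean, above all 5 sites. At the free regions of ranks 5, 7, 8 and 9 the SD was 1.42, 0.754, 0.880 and 1.49, against 0.808 to 1.48 at the sites. A larger spread was thus not particular to the 5 sites, and it comes from the same values by which they were chosen.

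The 5 sites held ranks 1, 2, 3, 4 and 6 among the free regions by mean fold enrichment. Their means ran from 5.22 to 6.65, and those of the other 304 from 1.78 to 5.26 with a median of 2.28. The mean pileup was 212 to 265 tags at the sites and had a median of 97.3 tags over the others. Within the libraries, *XRI1* and AT5G48730 ranked first among the free regions in all 3, AT1G30660 ranked 4, 2 and 2, *RALFL20* and *WRKY35* ranked 2, 3 and 5, *IQD5* and *POP2* ranked 3, 4 and 2, and AT1G05700 and AT1G05710 ranked 10, 6 and 6.

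**Figure D3:**
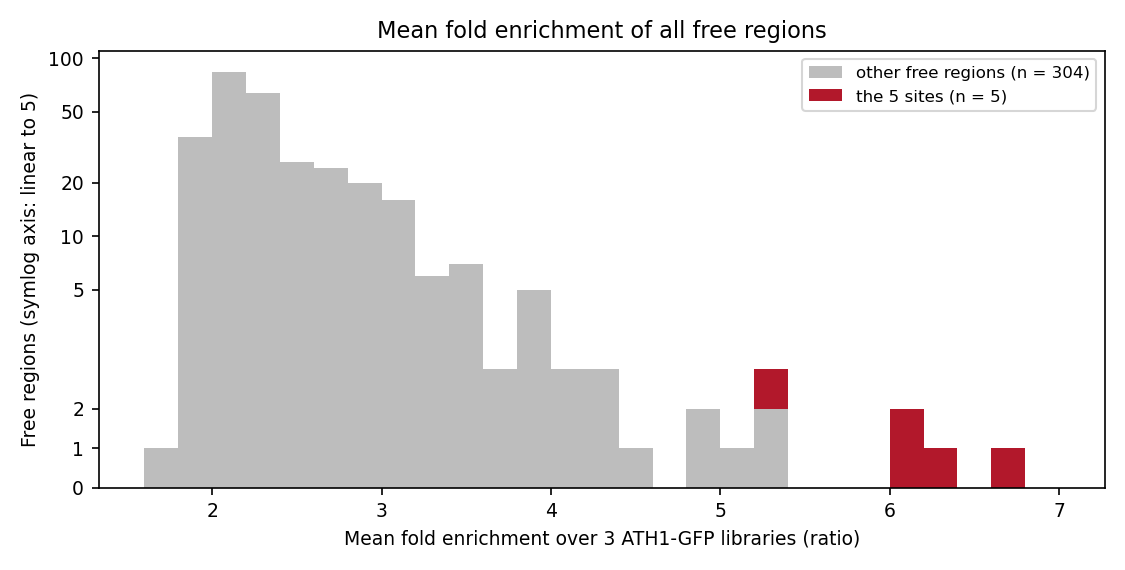
Number of free regions by their mean fold enrichment in replicates 1, 2 and 3 of ATH1-GFP, in bins of 0.2 (vertical axis linear up to 5 and logarithmic above). The 5 sites (red) have means of 5.22 to 6.65, and the other 304 free regions (gray) have a median of 2.28 and a highest value of 5.26.

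The free region at rank 5 is not among the 5 sites, although its mean was above that of AT1G05700 and AT1G05710. It lies on chromosome 3 from 5108994 to 5109918, in the windows of AT3G15160 and *CUC1* (AT3G15170), a NAC transcription factor known for separating organs at the apex. Fold enrichments there were 6.16, 6.004 and 3.63 for replicates 1, 2 and 3. It was above AT1G05700 and AT1G05710 in replicates 1 and 2 and below them in replicate 3, with a mean difference of 0.0477 ± 0.635 (SD, n = 3). The 9 genes are thus those of the 4 strongest free regions and of a region that could not be ordered against rank 5 or, as given next, against rank 7.

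Just below AT1G05700 and AT1G05710 came a region on chromosome 4 from 14623716 to 14624206 that lay in no listed window, with 6.02, 5.11 and 4.52 (mean 5.21 ± 0.754, SD, n = 3). Its pileups of 264, 224 and 280 tags gave it the second highest mean pileup of all free regions, after *XRI1* and AT5G48730. In fold enrichment this region was above AT1G05700 and AT1G05710 in replicates 1 and 3 and below them in replicate 2. The next were the region of AT4G22570, for an adenine phosphoribosyl transferase, at 5.06 ± 0.880, and that of AT2G01990 and AT2G02000 at 4.86 ± 1.49 (SD, n = 3 for both). The latter gene encodes glutamate decarboxylase 3, of the enzyme class that makes GABA, the compound that *POP2* breaks down. That link was seen after the values were known, and the regions of both genes also lie in another listed window.

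What the choice did not use directly is the position of the summits. They lay within 30 nt of each other at 4 of the 5 sites, all but AT1G05700 and AT1G05710, and at 56 of the 304 other free regions (18.4%). The limit of 30 nt was set after the ranges were known and equals the highest of the 4. The range had a median of 29 nt at the sites and 88 nt over the others. Among the 10 free regions at ranks 7 to 16 it ran from 15 to 54 nt and was within 30 nt at 6, so close summits were not particular to the 5 sites. Higher peaks have more tags at the summit, and the part of this in the narrower range was not tested. The median of the mean peak length was 557 nt at the sites against 480 nt over the others, and lay within the quartiles of the others (414 to 590 nt). Unlike the summit position, length is the stretch above the calling cutoff, so it is tied to the height that the choice used.

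In the wild type, no peak at any deposited threshold (q below 0.05) lay in the 9 windows in any of the 3 replicates. The ATH1-GFP libraries had 17 peaks there, of which 15 were the main ones. The sites were chosen as free of wild-type peaks, so this contrast follows largely from the choice. It was also not particular to the 9 genes. Of the 309 free regions, 306 remained when wild-type peaks of any deposited threshold were set apart. The share of other listed windows without a wild-type peak is not given here. The lowest pileups listed in wild-type replicates 1, 2 and 3 were 29, 75 and 45 tags. A site without a listed peak has no value in these lists, so binding below the threshold in the wild type was not measured, and replicate 1 was the shallowest library.

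The wild-type peaks nearest to the sites were far from most of them. They lay 329 to 1256 kb from *XRI1* and AT5G48730, 244 to 1163 kb from AT1G05700 and AT1G05710, and 43.9 to 200 kb from *RALFL20* and *WRKY35*. At *IQD5* and *POP2* the nearest peak was 18.3 kb away in all 3 wild-type replicates, and at AT1G30660 it was 52.1, 52.3 and 52.2 kb away. In both cases the nearest other shared region of the ATH1-GFP libraries lay at about the same distance, at 18.3 and 52.3 kb, and overlapped peaks of all 3 wild-type libraries. The region near AT1G30660 averaged 6.47 over the ATH1-GFP replicates, above that of AT1G30660 itself.

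More generally, a high fold enrichment was not confined to regions absent from the wild type. There were 14 shared regions with a wild-type peak and a mean above that of AT1G05700 and AT1G05710, of which 13 overlapped peaks of all 3 wild-type libraries, and 6 of the 14 were above *XRI1* and AT5G48730. Only 1 of the 14 lay in a listed window, that of AT1G69130 and AT1G69120 (*AP1*, a floral MADS-box gene), with a mean of 5.77 ± 1.14 (SD, n = 3) and a peak of 2.34 in wild-type replicate 2 alone. These genes were chosen after their values were seen. By pileup, *XRI1* and AT5G48730 ranked 77, 69 and 74 among all peaks of replicates 1, 2 and 3, and 8, 3 and 5 of the higher ones were without a wild-type peak.

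**Figure D4:**
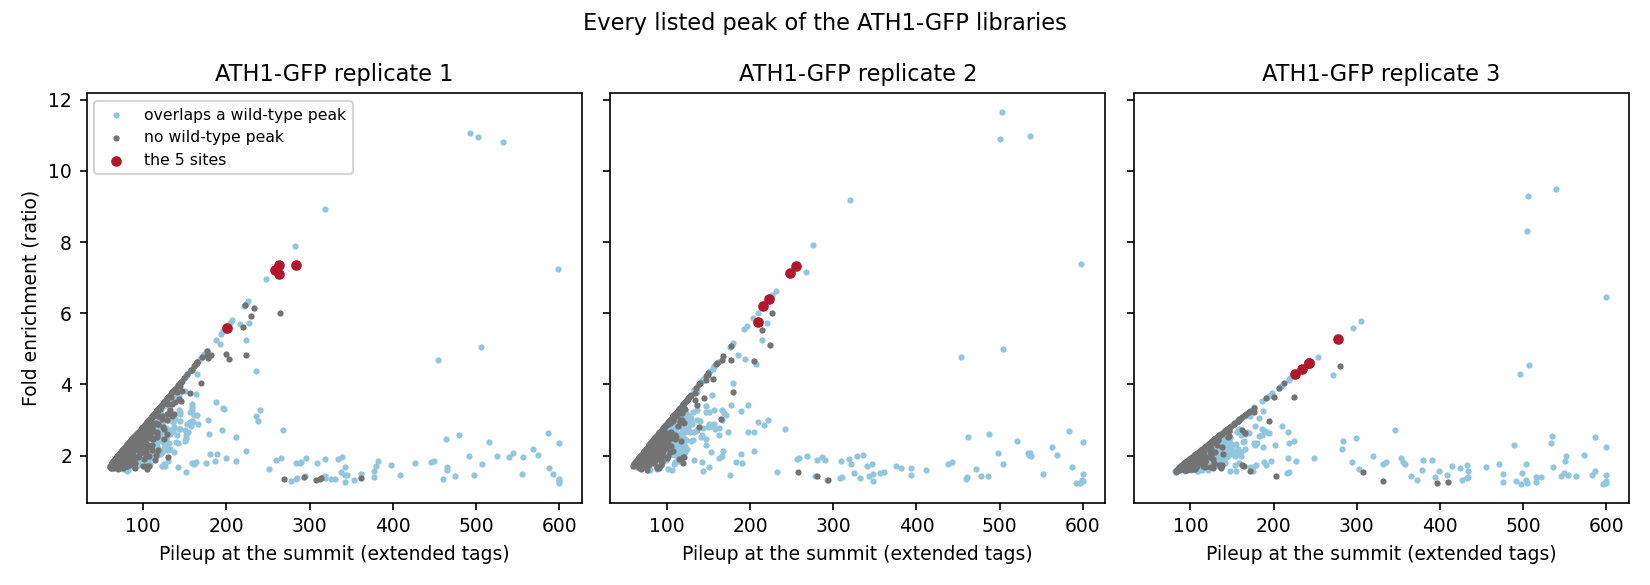
Fold enrichment (a ratio) against pileup at the summit (extended tags) for every listed peak of ATH1-GFP replicates 1, 2 and 3, with peaks over a wild-type peak in blue, the others in gray and the 5 sites in red. The 5 sites lie on or near the upper edge, where the background is that expected from depth, and the peaks above *XRI1* and AT5G48730 in fold enrichment (5, 6 and 7) are all blue.

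Listed genes of the same families are given with the authors' mean fold enrichment per gene. The 9 genes were chosen for high values of this measure, so lower values of their relatives follow from the choice. Of 8 listed *WRKY* genes, *WRKY35* had 6.06, followed by *WRKY47* at 3.86, *WRKY64* at 3.77 and *WRKY46* at 2.65. The median of the 8, *WRKY35* included, was 2.53, against 2.33 over all 629 listed genes. Of 7 listed genes for basic helix-loop-helix proteins, AT1G05710 had 5.22, followed by AT1G72210 at 2.81, AT3G07340 at 2.80 and *GL3* at 2.33, the last of which is known for the patterning of leaf hairs. The median of these 7 genes was 2.33. Apart from *WRKY47* and *WRKY64*, the relatives named here lay between 2.33 and 2.81. *GL3*, at 2.32754, lay just below the median of the whole list (2.32762), and the others lay above it. The relatives were named for the highest values after the member, so they do not show where their families lie.

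Of 7 listed genes for kinases with leucine-rich repeats, AT1G05700 had 5.22 and the next, AT3G02880, had 2.41, followed by AT3G56370 at 2.29 and *BAM1*, a receptor that acts in the shoot meristem, at 2.24. Of 5 genes for pentatricopeptide repeat proteins, AT5G48730 had 6.65 and the next, AT5G15340, had 2.51, followed by AT1G17630 at 1.94. The medians of the kinase and pentatricopeptide repeat genes, members included, were 2.24 and 1.94. *RALFL20*, *IQD5* and AT1G30660 had no listed relative by the words RALF, IQ-domain or Toprim in the authors' descriptions.

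The authors' table names for most genes the *Arabidopsis* protein most like theirs. For 2 of the 9 genes that protein's gene was listed as well, beside 13.1% of the 526 listed genes with such an entry. The protein most like that of *XRI1* was encoded by AT2G01990, which shares the free region at rank 9 with AT2G02000, and the one most like that of AT1G05710 by AT2G31730, with a mean of 2.10. The remaining 7, among them *IQD6* for *IQD5* and *WRKY14* for *WRKY35*, were not listed. The genes of these proteins were named after the values were seen. *WRKY14* (AT1G30650) is also the gene directly before AT1G30660 in the order of the RefSeq annotation, a neighborhood seen after the values were known.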

How the data were processed

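ChIP-seq libraries from 3 ATH1-GFP and 3 wild-type samples were analysed from the authors' peak tables, 1 per library. According to the submitters' processing notes and the file headers, the authors mapped reads with Bowtie2 to TAIR10 and called peaks with MACS 2.0.10.20130915, without a control library or a fragment model, with a q cutoff of 0.05, a genome taken as 90000000 nt, tags extended to 300 nt and 1 tag kept per position. The deposited fold enrichment is the authors' ratio of pileup to background within a library, as written by MACS. The −log10 q in the deposited tables was computed by MACS against that background. The deposited pileup is a signal in tags, not scaled for depth, and cannot exceed 600 here. In the authors' table of targets, fold enrichment and −log10 q are their means over the ATH1-GFP libraries. Its header gives a −log10 q cutoff of 3, an overlap of at least 50 nt, and gene windows that add 3000 nt upstream and 1500 nt downstream. The deposited narrowPeak lists hold the same peaks and were not used.

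Peaks at a false-discovery rate below 0.001 were intersected over the ATH1-GFP libraries (at least 1 bp), and regions over a wild-type peak at that threshold were set apart. A site's value is the mean and SD over the 3 ATH1-GFP libraries, and these means equal the authors' for all 9 genes. Because the lists hold only called peaks, fold enrichment was not compared between groups. The overlap code was tested on simulated data. Python 3.11.15, numpy 2.4.6, pandas 2.3.3 and matplotlib 3.10.9 were used. The RefSeq table, of another assembly release, matched 620 of 629 listed genes and served only for symbols, gene types and gene order. No genome was used, so no sequence or motif was analysed.

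The genes and gene families were chosen with earlier results of these data known. Genes named are the 9, those of the 3 free regions next to them in mean fold enrichment, up to 3 further listed genes per family with the highest authors' means, and neighbors. Others are marked as chosen after their values were seen. The number of tags and of replicates limits the precision of each value, and nothing in the lists allows a counting interval for a site without a peak. The alternatives tried were a threshold of 0.0001, overlap by 50% of the shorter peak, other exclusions of wild-type peaks, other measures of height, and leaving out each library.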

Additional observations from a re-analysis of the deposited data

How the results depend on the processing

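The mean fold enrichment of the 5 sites could change only when an ATH1-GFP library was left out. Leaving out 1 of 3 values always moves a mean by less than 1 SD, so moves below that limit do not check it. At *XRI1* and AT5G48730 the mean was 6.29, 6.32 and 7.34 without replicates 1, 2 and 3. The ranks of the 5 sites moved by less than the SD of the rank over libraries, or not at all, in all but the cases given here for no exclusion, for leaving out ATH1-GFP replicate 2 and for *IQD5* and *POP2*. Without any exclusion of wild-type peaks the ranks were 7 for *XRI1* and AT5G48730, 9 for AT1G30660, 10 for *RALFL20* and *WRKY35*, 11 for *IQD5* and *POP2* and 20 for AT1G05700 and AT1G05710, since regions over wild-type peaks then enter the list. With each library left out in turn, the rank of AT1G30660 ranged from 2 to 4 and that of *IQD5* and *POP2* from 2 to 4, since they traded places without ATH1-GFP replicate 2 (rank 4 for AT1G30660 and 2 for *IQD5* and *POP2*), while AT1G05700 and AT1G05710 ranged from 5 to 7 and the others kept ranks 1 and 3. The number of free regions ranged from 312 to 531 when a library was left out. A region then has fewer lists to pass, so higher counts follow largely from the definition. The 531 without ATH1-GFP replicate 3, which had the fewest peaks of its group, were the only count more than 1.5 times from 309, and the cause was not tested. By pileup the ranks were 1, 3, 4, 5 and 8, of which the 5 of *IQD5* and *POP2* was a move by the full SD of 1, as was their rank of 3 as a mean of the ranks within libraries. By −log10 q the ranks were 1, 2, 3, 4 and 7. No paired analysis was possible because none of these results comes from a test between the groups. Matches to motifs and distances to transcript starts were not run, for lack of a genome of the files' build. The lists give no values where no peak was called, and 3 libraries per group set the error of each mean.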
